A study of Homo sapiens with 16 samples.

Results

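The genes described here are those whose RNA was at least 2 times higher after Top1 depletion in HEK293 cells. A gene was taken when its mean normalized count over the 4 RNA-seq libraries was at least 100, the ratio of the Top1 KD mean to the scramble mean was at least 2, and the lower Top1 KD library was above the higher scramble library. The rule took 132 of the 19333 rows of the gene table, which is 1.28% of the 10308 rows with a mean of at least 100, after 2 other rows that met it were left out. The members were thus chosen by the normalized counts of the same 4 libraries, and the rise is given below as a description without a test. The mirrored rule for falling genes took 157 rows.

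DNA topoisomerase I (Top1) nicks a single DNA strand, lets the helix turn and seals it again. It relaxes the positive supercoils that build up ahead of a transcribing polymerase and the negative supercoils behind it, where the new RNA can pair back with its template as an R-loop. It is known to help RNA polymerase II leave the promoter and elongate, and long genes depend on it most, which has been described above all in neurons treated with Top1 poisons.

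HEK293 is a line of transformed human embryonic kidney cells. Cells of the scramble group (2 libraries) received a negative control RNA, and cells of the Top1 KD group (2 libraries) received 10 nM of an siRNA against the nuclear Top1 transcript, transfected a second time and harvested 5 days after the first transfection. Which of the study's Top1 siRNAs was used for RNA-seq is not given in the sources used here, and nothing says that the libraries of a group came from separate cultures, so the spread between them may be technical. Total RNA was depleted of ribosomal RNA, and reads on genes ranged from 14681774 to 18366226 per library. A normalized count is a read count divided by the size factor of its library and is not scaled for gene length, so a gene's level is compared between libraries and not with that of another gene.

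TOP1 itself had 1278 and 1246 normalized counts in scramble replicates 1 and 2 and 1074 and 932.5 in Top1 KD replicates 1 and 2. Both Top1 KD libraries were below both scramble libraries, with a ratio of means of 0.795, and the gene did not pass the test (log2 difference -0.33, SE 0.13, limma adjusted p = 0.109). The study showed depletion of the Top1 protein by Western blot and states that RNA-seq verified the knockdown too. The values here are of RNA alone. TOP1MT, the mitochondrial enzyme, had 706 and 713 against 562 and 709.5, and the groups overlapped. Of the cell type markers, the epithelial keratin KRT18 (415 and 401 against 531 and 479.8), the mesenchymal filament VIM (1055 and 974 against 789 and 877) and the kidney factor PAX2 (50.1 and 56.3 against 82.2 and 71.7) were present in all libraries. The keratin KRT8 was lower in Top1 KD (4071 and 3741 against 2016 and 2575, limma adjusted p = 0.000751). The neurofilament NEFM, which HEK293 cells are known to express, had 214.5 and 166 against 88.8 and 120.2. PTPRC, ALB, CDH5, COL1A2 and MYOG, which mark blood, liver, endothelium, fibroblasts and muscle, had at most 7.04 normalized counts in any library, and the collagen COL1A1 was uneven within both groups (45.9 and 0.879 against 7.58 and 51.4). In bulk RNA, fewer cells of a kind and less RNA per cell cannot be told apart. The study also reports that Top1-depleted cells accumulated in G0/G1, with fewer cells in S phase, so the groups may differ in cell cycle phase as well. The part of the cell cycle in the differences given here was not tested.

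Most of the 132 genes lay close to the threshold. The ratio was under 2.5 for 92 of them, from 2.5 to 3 for 32 and at least 3 for 8, with a median of 2.29 and a highest value of 3.71. Their counts in scramble were moderate to low, with a mean under 100 normalized counts for 36, from 100 to 300 for 57, from 300 to 1000 for 30 and at least 1000 for 9. Over all 4 libraries the median of these genes was 277 normalized counts, against 806 for all rows with a mean of at least 100. Together they took 0.309% and 0.322% of the reads in scramble and 0.751% and 0.713% in Top1 KD. Without NUCKS1, the member with most reads, these shares were 0.248%, 0.256%, 0.614% and 0.569%. The fewest reads behind any value of a member were 41, for which counting alone gives an error of 15.6%.

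How far apart the groups lay is set in part by the rule itself, so the gaps are given as a description. The lower Top1 KD library was at least 1.5 times the higher scramble library in 115 genes and at least 2 times in 45, and it was under 1.2 times in 1 gene, SLC38A7. Both Top1 KD libraries were above both scramble libraries in 31.7% of all rows with a mean of at least 100, so the order of the libraries alone is common in this table. An exact permutation test of 2 against 2 libraries cannot give a p below 0.333. A limma fit over 13086 genes, which shares the spread between genes, called 3.88% of all genes higher and 4.26% lower (adjusted p under 0.05 and at least 1.5-fold), 8.15% in all. It called 119 of the 132 members. Nothing is read from that count, because the same contrast chose them. The 13 not called were MT2A, KLF7, KDM8, TRERF1, RCBTB2, SLC38A7, SLC25A29, SLC5A4, LRFN5, SYCP2, NAT1, PLPP5 and CC2D2B. The median log2 difference of the members was 1.2, and from 1.14 to 1.30 when each Top1 KD library was set against each scramble library, against 0.003 for all genes tested. Which genes met the rule depended on the libraries: without Top1 KD replicate 2 it took 203 genes, of which 112 were among the 132, and 57 genes were taken whichever library was left out.

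**Figure D1:**
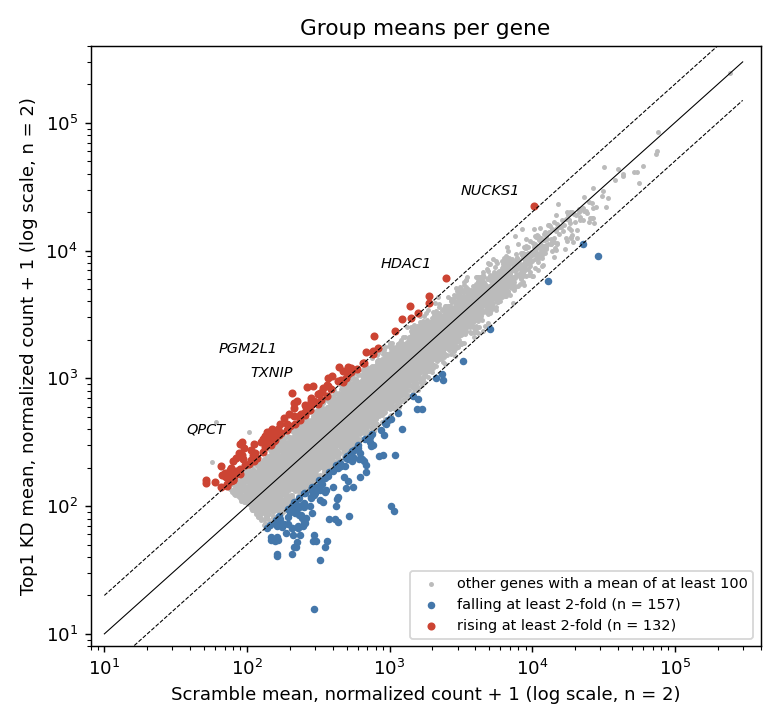
Mean normalized count plus 1 of each gene in scramble (x axis, log scale, n = 2) and Top1 KD (y axis, log scale, n = 2), for rows with a mean of at least 100. The solid line marks equal means and the dashed lines a ratio of 2 either way. The 132 rising genes (red) lie just above the upper line over the whole range up to NUCKS1, the 157 falling genes (blue) below the lower line, and the grey points above the upper line are rows that the rule left out.

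Just inside the threshold stood PLPP5, a lipid phosphatase (ratio 2.00, 116 and 107 against 271 and 177), ASAP3, a GTPase activator of the Arf family (227 and 208.5 against 423 and 449.8), and INO80D, a subunit of the INO80 chromatin remodeller (308 and 421 against 774 and 689). They were followed by the secreted ligand WNT5A (321 and 309.7 against 688 and 577) and the neuronal membrane protein TMEM108 (522 and 417 against 963 and 921). Just outside stood the row ENST00000266304 (ratio 1.9987) and the genes PRTG (1.9961), VPS26A (1.9958), STC1 (1.9885) and GORAB (1.987). The cell surface protein PRTG had 877 and 829.7 in scramble and 2365 and 1042 in Top1 KD, with the Top1 KD replicates far apart. VPS26A had 364 and 297 against 728 and 591. A single row met the ratio but not the separation, ENST00000540040, with 66.2 and 53.7 against 898 and 2.91 normalized counts, and its high mean came from Top1 KD replicate 1 alone. Another 45 rows met the ratio and the separation with a mean from 50 to 100.

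The member with the largest ratio was PGM2L1 (ENST00000298198, hg19 chr11:74041363-74109518, minus strand), an enzyme that makes glucose 1,6-bisphosphate, a cofactor of sugar phosphate mutases. It had 179 and 234 normalized counts in scramble replicates 1 and 2 and 966.5 and 566 in Top1 KD replicates 1 and 2, a ratio of 3.71, with the Top1 KD replicates far apart but both above scramble. QPCT (ENST00000338415, chr2:37571717-37600465, plus strand), which forms the pyroglutamate end of secreted peptides, had 92.8 and 82.7 against 385 and 225 (ratio 3.48) and the same order of the Top1 KD replicates. EIF5A2 (ENST00000295822, chr3:170606204-170626482, minus strand), the less common form of a hypusine-bearing translation factor, had 79 and 105 against 315 and 314 (ratio 3.42), and here the Top1 KD replicates were nearly equal.

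TXNIP, the inhibitor of thioredoxin that is known to follow glucose supply, was even between the replicates of each group. It had 277 and 247 in scramble and 824 and 872 in Top1 KD (262 ± 21.3 against 848 ± 34.5, mean ± SD, n = 2, ratio 3.23; hg19 chr1:145438469-145442635, plus strand). FDXR, the mitochondrial ferredoxin reductase and a p53 target, had 68.3 and 61.6 against 159 and 252 (ratio 3.17). For FDXR replicate 2 was the higher of the Top1 KD libraries.

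The promoter of TXNIP is shown because CCAAT boxes on it are well known: the 250 bases before the start in RefSeq (GRCh38.p14, chr1:145996580-145996829, minus strand) hold 2 of them, in capitals (CCAAT or its reverse complement), at 140 and 105 bases before the start. The gene is on the plus strand in hg19 and on the minus strand in GRCh38.
TXNIP: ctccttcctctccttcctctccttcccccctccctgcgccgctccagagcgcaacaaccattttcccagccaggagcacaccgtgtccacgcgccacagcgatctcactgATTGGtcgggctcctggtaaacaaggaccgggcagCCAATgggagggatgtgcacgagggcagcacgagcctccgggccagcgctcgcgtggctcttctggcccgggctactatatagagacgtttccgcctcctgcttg
Of all 27303 promoters of that length in RefSeq, 33.0% hold the letters CCAAT on either strand, as do 39.2% of the members' 102 promoters found there, 36.5% of those of rows with a mean of at least 100 and 32.3% of those of falling genes, so the match is a description of this sequence and not of a factor at work.

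Other members with large ratios had low to moderate counts. IGIP encodes a secreted protein that promotes immunoglobulin A (43.7 and 58.1 against 183 and 134, ratio 3.11), and CACNA1D encodes the pore of an L-type calcium channel (101 and 86.2 against 313 and 259.8, ratio 3.05). The lysosomal membrane transporter SIDT2 had 54.4 and 119.7 against 296.5 and 225, and the aminoacylase ACY1 had 47 and 54.5 against 159 and 144. PCYOX1L, a relative of prenylcysteine oxidase, had 186 and 243 against 463 and 812, and the cell polarity protein LLGL1 had 194 and 252 against 688 and 629. In SIDT2 the scramble replicates were more than 2 times apart, and in PCYOX1L Top1 KD replicate 1 was at 0.57 of replicate 2, yet in none of these genes did the groups come within a factor of 1.5 of each other.

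**Figure D2:**
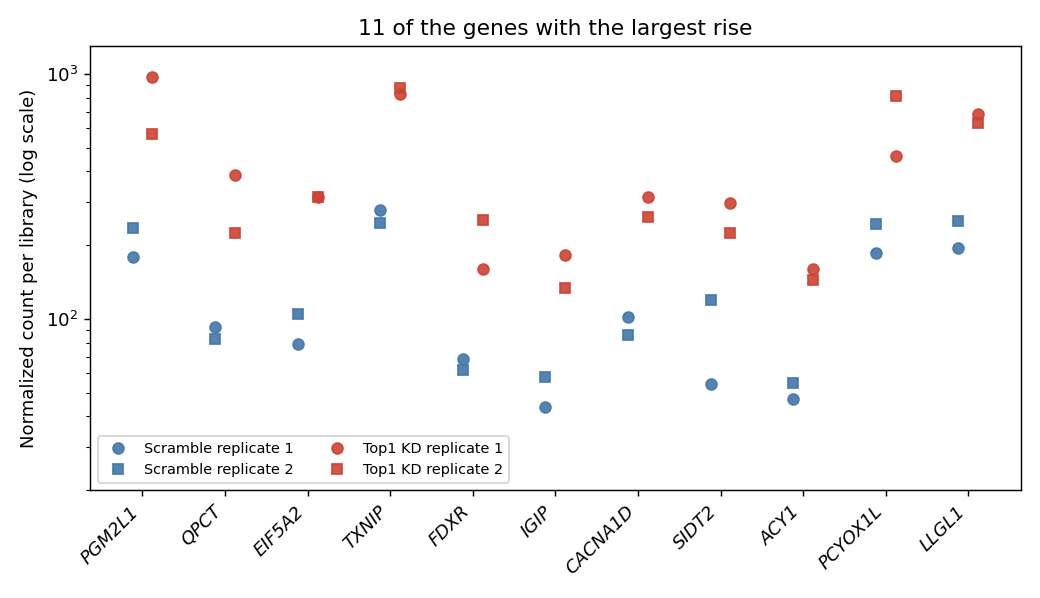
Normalized counts in each of the 4 libraries (y axis, log scale) for 11 of the genes with the largest ratios of the Top1 KD mean to the scramble mean, from PGM2L1 at 3.71 to LLGL1 at 2.96. Blue marks scramble, red marks Top1 KD, circles replicate 1 and squares replicate 2, and in each gene shown both red points lie above both blue points.

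The most highly counted members were mainly chromatin, RNA and signalling genes. NUCKS1, an abundant chromatin protein involved in DNA repair by homologous recombination, had 10060 and 10630 normalized counts in scramble and 21740 and 22980 in Top1 KD (ratio 2.16; hg19 chr1:205681947-205719404, minus strand). HDAC1, a histone deacetylase of several corepressor complexes, had 2488 and 2481 against 5662 and 6438 (2485 ± 5.01 against 6050 ± 548, n = 2, ratio 2.44; chr1:32757687-32799236, plus strand). For both genes the scramble replicates were close, and both Top1 KD libraries lay at more than 2 times the higher scramble library. PIK3R3, a regulatory subunit of phosphoinositide 3-kinase, had 1790 and 2002 against 5053 and 3834, with replicate 1 the higher Top1 KD library. The glutaminyl-tRNA synthetase QARS1 (1552 and 1252 against 3730 and 3626) and the small RNA effector AGO1 (1574 and 1606 against 3462 and 3071) were even between the Top1 KD replicates. PNMA1, a protein related to retrotransposon Gag and known as a target of autoantibodies, had 1444 and 1389 against 3076 and 2809, and the mitochondrial serine hydroxymethyltransferase SHMT2 had 1058 and 1392 against 2842 and 2961.

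By known role the 129 members with a symbol were spread over 14 groups, which were drawn up after the members were known and carry no test. The remaining 3 rows, ENST00000537896 (ratio 2.58), ENST00000366523 (2.39) and ENST00000378180 (2.18), were left without a name. Metabolic enzymes formed the largest group with 21 members and ratios from 2.00 to 3.71. They covered glycogen and sugar phosphate metabolism (PGM2L1, GBE1, EPM2A), amino acid and 1-carbon metabolism (SHMT2, ASL, ACY1), fatty acid oxidation (ACADVL) and steroid or drug conversion (CYP19A1, CYP3A5, NAT1, DHRS11). The glycogen branching enzyme GBE1 had 348 and 395 against 1043 and 972, and the glycogen phosphatase EPM2A, known as laforin, had 273 and 286 against 737 and 488.5. The cytochrome P450 family gave CYP19A1, the aromatase that makes oestrogens (164 and 183 against 383 and 356), and CYP3A5, an enzyme of drug oxidation (189.9 and 118 against 325 and 315).

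Chromatin and transcription genes formed the next group with 19 members. Beside HDAC1 and NUCKS1 it held members of the Polycomb system, namely CBX7, which reads methylated lysine 27 of histone H3 (64 and 75.7 against 173 and 165), and PHF19, an accessory subunit of the methyltransferase complex that writes it (177 and 201 against 472 and 397). MED12, of the kinase module of Mediator, had 317 and 359 against 846 and 838 with nearly equal Top1 KD replicates. The zinc finger genes ZNF827 (291 and 220.0 against 591 and 498) and ZNF713 (88.6 and 139 against 234 and 281) were members, as were the corepressor RUNX1T1 (299 and 373 against 832 and 721) and CCNDBP1, a cyclin D binding protein (372 and 412 against 1142 and 952). The demethylase family protein KDM8 had 72.5 and 78.3 against 139.6 and 173.5 and the zinc finger factor KLF7 80 and 77.4 against 151.5 and 169, both among those not called.

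RNA processing and translation gave 9 members. The aminoacyl-tRNA synthetases QARS1, above, and VARS1 (525 and 794 against 1193 and 1454) belong to it, with the valine enzyme less even between the scramble replicates. SRPRA, the receptor of the signal recognition particle at the endoplasmic reticulum, had 754 and 802 against 2329 and 1954 and WDR18, of ribosome assembly, 118 and 155 against 327 and 435. EXOSC6, a subunit of the RNA exosome, and FTSJ1, a tRNA methyltransferase, had 779 and 751 against 1661 and 1587 and 463 and 556 against 1069 and 1084. In all of these except VARS1 the lower Top1 KD library was at least 1.9 times the higher scramble library. The splicing regulator NOVA1, known from neurons, had 127 and 161 against 314 and 301.5.

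Signalling genes included 7 kinases and second messenger enzymes and 8 regulators of small GTPases. Of the calcium and calmodulin dependent kinases, CAMK4 had 272 and 291 against 750.0 and 649 and CAMK1D 113 and 119.7 against 266 and 207. Both lie on genes of over 200 kb, and replicate 1 was the higher Top1 KD library in both. The tau tubulin kinase TTBK2 (657 and 639 against 1515 and 1108) and the autophagy-related kinase ULK3 (278.5 and 278 against 553 and 765) differed in which Top1 KD replicate was higher. Of the GTPase activating proteins, ARHGAP24 had 493 and 522 against 1376 and 1073 and ARHGAP28 108 and 142 against 360.4 and 278. The guanine nucleotide exchange factors were ARHGEF28 (180.3 and 126 against 326 and 336) and FGD4 (122 and 135.5 against 414.5 and 250.1). The GTPase regulators had a median span of 113 kb, and 5 of the 8 were longer than 80 kb.

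Channels and transporters gave 9 members, 7 of them with the higher value in Top1 KD replicate 1. Of the 9 members, 6 were solute carriers. The potassium-dependent sodium-calcium exchanger SLC24A3 had the largest ratio of them (84.3 and 73 against 248 and 199), followed by the little known SLC35F3 (74.7 and 56.3 against 168 and 181). The endosomal proton exchanger SLC9A9 had 188 and 128.5 against 339.8 and 375. The mitochondrial carrier SLC25A29 had 47 and 81.8 against 179 and 104, and SLC5A4, of the sodium-glucose cotransporter family, had 76.8 and 80.9 against 168 and 151. SLC38A7, an amino acid transporter of the lysosome, stood closest to overlap of all members, with 45.9 and 95.9 in scramble and 184 and 103 in Top1 KD.

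Cell surface and secreted proteins gave 17 members, 9 in adhesion, junctions and receptors and 8 in matrix, ligands and proteases. The tight junction proteins F11R (416 and 316 against 867 and 891) and CGN (80 and 124 against 215 and 207) were both members, and so were synaptic adhesion proteins on very long genes, CNTNAP2 and CLSTN2. The basement membrane chain LAMB2 had 195 and 197 against 545.5 and 508, the thrombospondin THBS3 107 and 161 against 312 and 383, and the extracellular chaperone CLU 188 and 110.0 against 379.9 and 416. IGFBP5, which binds insulin-like growth factors, had 500.4 and 567.5 against 1057 and 1331. Scramble replicates were nearly equal for LAMB2 and more uneven for THBS3 and CLU.

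Genes of cytoskeleton, polarity and membrane traffic gave 15 members with a median ratio of 2.19. Besides LLGL1 they included the neuronal kinesin KIF5A (64 and 53.7 against 138.5 and 171), the ciliary protein FAM161A (106 and 186.5 against 352 and 415) and the synaptophysin relative SYPL1 (461 and 475 against 1273 and 989.7). The axon guidance gene NAV2 had 369 and 284 against 855 and 688, and the receptor adaptor GIPC1 had 319 and 414 against 949 and 776. In 10 of the 15 the higher value was that of Top1 KD replicate 1.

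Redox, metal and sterol regulators were few, with 5 members, but had the highest median ratio of any group, 2.80, and in all 5 Top1 KD replicate 2 was the higher. SREBF1, the transcription factor of lipid synthesis, had 87.5 and 77.4 against 229 and 243 (82.5 ± 7.12 against 236 ± 9.79, n = 2, ratio 2.87). VAT1, of the quinone oxidoreductase family, had 429 and 449.6 against 1161 and 1298, and ERLIN1, a lipid raft protein of the endoplasmic reticulum that restrains the sterol response, had 816 and 854 against 1662 and 1815. MT2A, a metallothionein that binds zinc and copper, had 97.1 and 41.4 against 119 and 229, with the replicates of both groups about 2 times apart, and was not called. The metallothioneins are similar in sequence and only uniquely mapped reads were used, so reads shared with other metallothioneins may be missing from its value.

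The promoter of MT2A is shown for its metal response elements. The 250 bases before its RefSeq start (GRCh38.p14, chr16:56608334-56608583, plus strand) hold 7 matches to TGCGCNC or TGCACNC on either strand, in capitals, from 246 to 8 bases before the start.
MT2A: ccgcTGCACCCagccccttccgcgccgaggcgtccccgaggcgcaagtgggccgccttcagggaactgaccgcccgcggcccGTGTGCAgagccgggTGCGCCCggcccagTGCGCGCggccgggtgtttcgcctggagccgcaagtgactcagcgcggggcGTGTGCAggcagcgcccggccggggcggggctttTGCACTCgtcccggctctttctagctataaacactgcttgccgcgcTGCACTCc
Such a match is common: at least 1 was found in 29.4% of the members' promoters, 35.1% of those of rows with a mean of at least 100, 38.5% of those of falling genes and 24.7% of all promoters of the table.

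Genes of interferon, death receptor and innate defence signalling gave 7 members with a median ratio of 2.11. STAT2, the transcription factor of the type I interferon response, had 355 and 201 in scramble and 522 and 611 in Top1 KD (278 ± 109 against 566 ± 62.9, n = 2). HERC5, the ligase for the ubiquitin-like protein ISG15, had 139 and 174 against 381 and 271. Death receptor signalling was represented by the receptor FAS (96 and 73.9 against 187 and 183), the adaptor TRADD of the tumour necrosis factor receptor (124 and 202 against 385 and 410.0) and NSMAF, which couples that receptor to neutral sphingomyelinase (817 and 705 against 1702 and 1425). The scramble replicates of STAT2 and TRADD were more than 1.5 times apart, those of FAS and HERC5 less.

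HERC5 was the only member promoter of the 102 found with an interferon response element, searched as GAAA, any 2 bases and GAAA again on either strand, and it is shown for that reason. The 250 bases before its start (GRCh38.p14, chr4:88456869-88457118, plus strand) hold 3 matches, in capitals, at 125, 119 and 74 bases before the start, the first and second overlapping each other.
HERC5: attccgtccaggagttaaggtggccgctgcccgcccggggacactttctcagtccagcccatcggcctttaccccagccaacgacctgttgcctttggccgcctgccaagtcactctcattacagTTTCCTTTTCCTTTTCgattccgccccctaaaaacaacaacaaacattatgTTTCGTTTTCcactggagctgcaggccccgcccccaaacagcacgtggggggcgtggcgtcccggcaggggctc
Of all promoters in RefSeq, 3.07% hold this motif, of rows with a mean of at least 100, 2.05% and of the members 0.98%.

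The smallest groups were the mitochondrial respiratory chain and meiosis with 2 members each. SURF1, an assembly factor of cytochrome oxidase, had 58.7 and 90.6 against 200.2 and 169.6, and ND2, the subunit of complex I encoded by mitochondrial DNA, had 288 and 376 against 700.2 and 651. Copies of mitochondrial genes in the nuclear genome are near-identical, which leaves the count of ND2 uncertain. The mitochondrial rows that flank it, ND1 and COX1, were not members and had log2 differences of 0.66 and 0.41. HFM1, a helicase of meiotic crossing over, had 201 and 267.5 against 514 and 511, and SYCP2, of the synaptonemal complex, had 96 and 59.8 against 144 and 182, of which SYCP2 was not called.

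**Figure D3:**
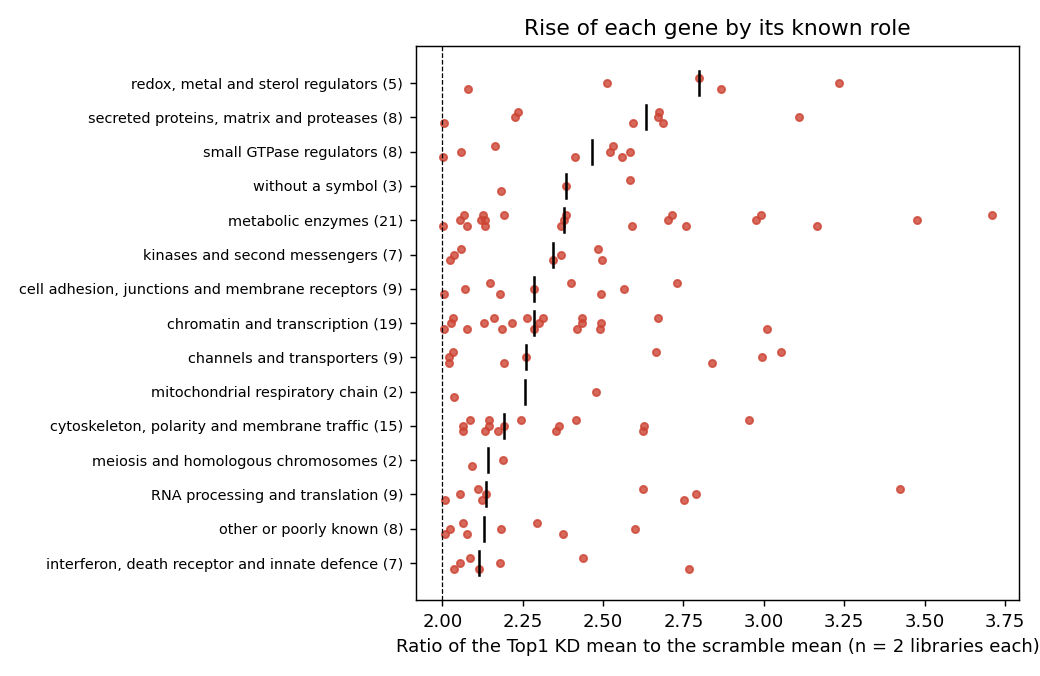
Ratio of the Top1 KD mean to the scramble mean (x axis, n = 2 libraries each) for each of the 132 genes, a point per gene, by known role, with the number of genes in brackets. Black bars are medians and the dashed line is the ratio of 2 that chose the genes. The medians run from 2.11 for interferon, death receptor and innate defence to 2.80 for redox, metal and sterol regulators.

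Other genes of the pathways were counted over 11 gene lists. Of 163 genes tested in them that are not members, limma called 4 higher and 14 lower, beside 3.88% higher and 4.26% lower of all genes tested, and the 4 called higher stood in lists without a member. The number of these calls depended on single libraries. It fell without scramble replicate 1, scramble replicate 2 or Top1 KD replicate 1, and it rose without Top1 KD replicate 2. Among 22 p53 targets, FAS and FDXR were members, no other was called higher, and PHLDA3, an inhibitor of the kinase Akt, fell from 87.5 and 141 to 16.2 and 18.4 (limma adjusted p = 0.00626). The median log2 difference of this list was 0.25. List medians here and below include any members in the list, which the rule chose for their rise. Of 21 interferon-stimulated genes, STAT2 and HERC5 were members, no other was called higher, and the RNA binding protein IFIT5 fell from 883.5 and 918.5 to 592 and 555 (limma adjusted p = 0.0102). The list median was 0.42, but its largest differences were of genes with very few counts, as IFI44 (0 and 15.8 against 32.5 and 22.3). ISG15, also low, had 59.8 and 27.3 against 2.16 and 5.82 and was not called (limma adjusted p = 0.0517).

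Sterol and redox lists gave a similar count. Of 16 sterol genes SREBF1 alone was a member and INSIG1, which holds the SREBP proteins in the endoplasmic reticulum, fell (2879 and 3220 against 1435 and 2559, limma adjusted p = 0.0237). The list had a median of -0.13. Of 13 NRF2 targets no gene outside the members was called, and the median was 0.01.

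Lists without a member were also counted. Of 17 genes of ATF4 and the unfolded protein response none was called higher and 6 were called lower, namely DDIT3, ATF3, ATF4, ASNS, DDIT4 and SLC7A11, with a list median of -0.34. The cystine transporter SLC7A11 showed the largest of these differences (818 and 631 against 344 and 343, log2 difference -1.06, SE 0.19, limma adjusted p = 0.00177). Of 20 matrix and TGF-beta genes, the collagen COL4A6 was called higher (379 and 359.8 against 622 and 564, adjusted p = 0.0207), while COL4A2, ID1 and ID3 were called lower. ID1, an inhibitor of differentiation factors, had 529 and 453 against 163 and 109.5. Of 21 regulators of the G1 phase, RBL1, a relative of the retinoblastoma protein that binds E2F factors, was called higher (980.5 and 1060 against 1864 and 1286, adjusted p = 0.0181) and E2F2 lower (1464 and 1075 against 662 and 721). Of 17 lysosome and autophagy genes, the channel MCOLN1 was called higher (41.6 and 31.7 against 139.6 and 83.4, adjusted p = 0.0433), though its mean was too low for the rule, and GABARAPL1 lower. Of 8 topoisomerases and Top1 repair genes TOP3B was called higher (355 and 547 against 732 and 699, adjusted p = 0.0292), and of 6 NF-kB targets and 9 neuronal genes none was called.

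Position in the genome was not used by the rule. The median span of the members, from the first to the last base of the row, was 28.8 kb, with quartiles of 12.9 and 113 kb, against 34.1 kb with quartiles of 14 and 83.1 kb for all rows with a mean of at least 100. Of the members 37.9% spanned less than 20 kb, against 33.8% of all such rows and 37.2% of all genes tested, and 30.3% spanned at least 80 kb, against 26.1% and 24.6%, which is near the background at both ends. Genes of at least 200 kb made up 15.9% of the members (21 genes), 8.43% of all rows with a mean of at least 100 and 4.46% of the falling genes. No test was made on these shares, since the same libraries chose the members. The median span and the share of at least 80 kb also depended on single libraries. The median span was 44.3 kb for the genes taken without Top1 KD replicate 2 and 21.6 kb without Top1 KD replicate 1. The share of at least 80 kb was 33.5% and 23.5%, the latter below the 26.1% of all rows with a mean of at least 100. The share of at least 200 kb was not recomputed with a library left out.

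**Figure D4:**
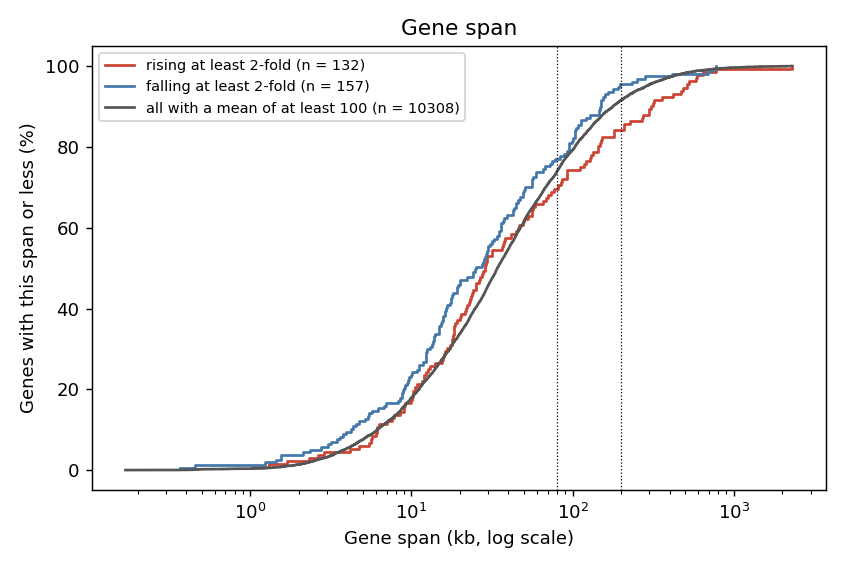
Share of genes (y axis, percent) with a span up to the value on the x axis (kb, log scale) for the 132 rising genes (red), the 157 falling genes (blue) and all 10308 rows with a mean of at least 100 (grey). Dotted lines mark 80 and 200 kb, where the red curve lies below the grey one, with 15.9% of the rising genes at 200 kb or more against 8.43%.

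The longest members were neuronal adhesion and guidance genes. CNTNAP2 (ENST00000361727, hg19 chr7:145813453-148118090, plus strand), a neurexin relative that spans 2305 kb, had 238 and 279 against 649 and 532. NAV2 (chr11:19372271-20143144, plus strand) spans 771 kb and is described above. CLSTN2 (chr3:139654027-140296239, plus strand), a calsyntenin of synapses that spans 642 kb, had 84.3 and 97.7 against 285 and 212. In all 3 Top1 KD replicate 1 was the higher. At the other end, ND2 spans 1.04 kb, MT2A 1.3 kb and EXOSC6 1.7 kb.

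The members lay a little farther from their neighbours than genes at large. The median distance to the nearest row was 7.99 kb, against 4.57 kb for all rows with a mean of at least 100 and 7.43 kb for the falling genes, and 13 members (9.85% against 5.99%) had no other row within 100 kb. Without scramble replicate 1 the median distance of the genes taken was 3.75 kb, so this difference rested on that library. Another row overlapped 16 members, 12.1% against 14.6%, and in 14 of them an overlapping row was on the opposite strand. Whether counting used strand is not given in the sources used here, so reads of such pairs (FAS and ACTA2, SHMT2 and COXFA4L2, TRADD and FBXL8, SRPRA and FAM118B among them) may not have been told apart. Among the nuclear chromosomes the members ranged from 0 of 104 rows on chromosome 21 to 7 of 340 on chromosome 15 (2.06%). They made up 18 of 1044 rows on chromosome 1 and 1 of 12 (8.33%) in mitochondrial DNA.

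Neighbours of the members were mostly not called. The 261 flanking rows that are not members had a median log2 difference of 0.08, with 59.0% above 0 and 14 (5.36%) called higher, against 0.002, 50.2% and 2.99% for the rows that flank any gene with a mean of at least 100. The rows that flank falling genes had a median of -0.05. LLGL1 and FLII on chromosome 17 were the only members next to each other. They run towards each other and overlap by 40 bases, and FLII, an actin-severing protein, had 974 and 1210 against 2310 and 2379, with 194 and 252 against 688 and 629 for LLGL1. Elsewhere members were close but parted by a gene that was not one, as QARS1 and LAMB2, 16.0 kb apart, with a log2 difference of 0.27 for USP19 between them, and the endocytic receptor LRP1 and SHMT2, 16.0 kb apart, with 0.85 for NXPH4 between them. CAMK4 and NREP, a protein of neuronal regeneration (741.5 and 616 against 1538 and 1685), lay on both sides of STARD4, with -0.14.

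The Top1 KD replicates were at least 1.5 times apart in 20 members (15.2%), in 7.48% of all rows with a mean of at least 100, in 18.3% of all genes tested and in 31.8% of the falling genes. The scramble replicates were so far apart in 30 members (22.7%), and in 4.19%, 13.9% and 7.64% of these sets. The median count of these sets was 277, 806, 542 and 225, and the part of the count in this spread was not tested. Replicate 1 was the higher Top1 KD library in 82 members (62.1%), in 50.3% of all such rows and in 32.5% of the falling genes. This share rose with span, in the members from 25 of 50 (50%) under 20 kb to 26 of 42 (61.9%) from 20 to 80 kb and 31 of 40 (77.5%) above, and in all rows from 38.5% to 50.4% and 65.6%. The pattern by span was thus shared by the whole table, and the median of replicate 1 over replicate 2 went from 0.94 to 1.00 and 1.07 in it.

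**Figure D5:**
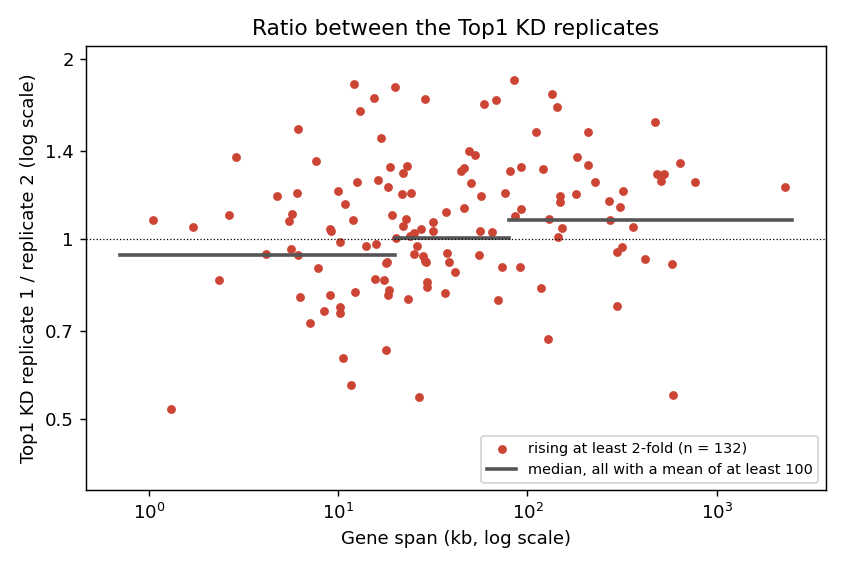
Normalized count of Top1 KD replicate 1 over that of Top1 KD replicate 2 (y axis, log scale) against gene span (x axis, kb, log scale), a point for each of the 132 genes. Grey bars are the medians of all rows with a mean of at least 100 under 20 kb (0.94), from 20 to 80 kb (1.00) and above (1.07), and above 80 kb 31 of the 40 points lie over 1.

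The members with the largest gap between the Top1 KD replicates went both ways. Replicate 2 was the higher for MT2A (ratio of replicate 1 to replicate 2 0.52), for CXXC4, a zinc finger inhibitor of Wnt signalling (0.55, 97.1 and 123 against 177.5 and 326), and for the teneurin TENM1 (0.55, 52.3 and 86.2 against 122 and 223). Replicate 1 was the higher for LRP1 (1.84, 207 and 135 against 568 and 308), for PBXIP1, a partner of PBX homeodomain factors (1.82, 267 and 208.5 against 679.7 and 374), and for SLC38A7 (1.79). In each of these 6 the lower Top1 KD library was less than 1.5 times the higher scramble library.

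The promoters of the members had the same median base composition as those of other genes at this level. Of the 132 genes 102 had a promoter in the RefSeq table, with a median GC content of 65.6% over the 250 bases before the start, the same as the 65.6% of 6693 rows with a mean of at least 100, and below the 68.6% of 96 falling genes. At least 10 CpG dinucleotides were found in 79.4% of them, against 90.6% of those rows and 86.5% of the falling genes. The GC box GGGCGG was present in 71.6% against 70.7%, the TATA box TATAAA in 6.86% against 4.96%, the E-box CACGTG in 7.84% against 9.62%, and the AP-1 site TGACTCA in 0.98% against 1.91%, on either strand. The share of all 27303 promoters with each was 42.3%, 11.1%, 6.49% and 4.16%. The cAMP response element TGACGTCA was found in 1.96% of the members' promoters, 3.33% of those rows and 1.77% of all promoters. Motifs were searched independently and may overlap each other, and a motif outside the 250 bases was not looked for.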

How the data were processed

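RNA-seq of HEK293 cells (2 scramble and 2 Top1 KD libraries) was used. The other 12 of the 16 samples (R-loop mapping by DRIP-seq or DRIPc-seq, and ChIP-seq of RNA polymerase II) were not used here. The authors deposited, for each library, a signal, which is the number of reads on a gene over the library's DESeq2 size factor. Per the submitters' processing notes and the methods, single-end reads were cleaned with fastq-mcf, mapped with TopHat2 2.0.5 to hg19 and counted with HTSeq, using uniquely mapped reads. The annotation release and the strand setting are not given in the sources used here. The authors' own fold changes, p-values and calls were not used. All columns of per-library values were mapped to a sample by its description (0 were left over). Whole reads were recovered from the steps of the values (100% whole within 0.01 reads or 0.02% of the value). Replicates of a group differed by more than sampling noise (chi-square per degree of freedom 10.6 in scramble and 15.4 in Top1 KD).

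The members and all lists were chosen with earlier results of these data known. Genes were tested with limma 3.58.1 (R 4.3.3) with a mean-variance trend on log2(normalized count + 1), which understates changes of low genes, among genes that reached 10 normalized counts in 2 or more libraries, with Benjamini-Hochberg adjustment, and called at adjusted p under 0.05 and at least 1.5-fold. On simulated counts for this comparison with 150 genes of 12815 changed at least 2-fold, 90.7% of these were called and 2 of 151 calls fell on unchanged genes. Other genes were changed 1.5-fold and account for the remaining calls. All changed genes had a mean of at least 100, so these shares do not carry over to lower genes. edgeR 4.0.16 and DESeq2 1.42.0 on the recovered reads were alternatives. Features and promoters were summarised in Python 3.11.15 with pandas 2.3.3. Beside them, library-size scaling, other pseudocounts, filters and thresholds, a replicate block and leaving out each library were tried. Same-numbered libraries of the groups did not deviate together (r = -0.01 over 13086 genes).

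The table gives transcript identifiers without symbols. Of its 19333 rows, 14090 were named by a RefSeq gene of the same chromosome, strand and span with both ends (within 2000 bases or 2% of the span) at the shift shared by neighbouring rows. Unlike in the plan, 52 more were named by a single end and 3 by the span alone, each at a known hg19 position. The genes named were the 12 with the largest ratio, the 8 with the highest Top1 KD mean, 5 on each side of the threshold, the 3 longest and 3 shortest, 3 at each extreme of the Top1 KD replicate ratio, adjacent members, members and called genes of the lists, and families. Other members with values illustrate role groups and were chosen after their values were seen. Some of the genes that this rule takes are not reported here.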

Additional observations from a re-analysis of the deposited data

How the results depend on the processing

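The thresholds set how many genes the rule took, which was 275 at the lower ratio tried and 40 at a ratio of 2.5, against 132. Leaving out each library in turn gave from 119 to 203 genes, and with the values scaled by library size it gave 148, among them all 132. With each library left out, limma called from 316 to 1329 genes in place of 1066, from 63 to 93 of the members in place of 119 and from 2 to 22 list genes in place of 18. Without scramble replicate 1, scramble replicate 2 and Top1 KD replicate 1 the genes called numbered 316, 424 and 572 and the members called 64, 71 and 63. In these fits the group with 1 library was assumed to vary like the other. The median span of the genes taken ranged from 21.6 to 44.3 kb, the share of at least 80 kb from 23.5% to 35.2% and the median distance to the nearest row from 3.75 to 7.55 kb. The causes were not tested.

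The replicate block left 1085 genes, 122 members and 18 list genes called. The numbers do not pair the libraries, and the block changed no other call count by over 1.5 times. DESeq2, edgeR, library-size scaling, the other pseudocounts and no low-value filter gave from 1004 to 1102 genes called. Library-size scaling moved the share of higher calls from 47.7% to 53.4% and the median of all genes from 0.003 to 0.027. The rule fixes the sign of the named members' differences, and the lowest of them with a library left out was 0.52 on the log2 scale, for SLC38A7 without scramble replicate 1, in place of 1.04. The 2 libraries a group and the 41 reads behind the lowest value limit how well the ratio of a single gene is known.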
